A study of Mus musculus with 48 samples.

Results

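The 9 genes described here encode the proteins that place and remove N6-methyladenosine (m6A) on mRNA. They are the writers Mettl3, Mettl14, Wtap, Zc3h13, Rbm15, Rbm15b and Cbll1 and the erasers Fto and Alkbh5. The measurement is not the activity or the amount of these enzymes but the m6A on their own transcripts, as peaks of m6A RNA immunoprecipitation (IP) sequencing (MeRIP-seq) of mouse hippocampus. All peaks that overlapped the body of a member in the mouse genome mm9 were taken. Joining the peaks of all animals wherever they overlapped by at least 1 bp gave 47 regions on the 9 genes, out of 81807 regions over 15928 genes in the whole series. Rows of the 10 deposited tables of differential peaks were taken where their gene was a member.

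The mice were males of 5 and 8 months, either HdhQ7/Q111 knock-in (KI) animals, which carry 1 huntingtin allele with an expanded CAG repeat in every cell, or HdhQ7/7 wild-type (WT) animals, and all were on a C57BL/6 background. Trained mice explored an open field with 2 objects and wall cues for 10 minutes in the object location task, a test of spatial memory, and were taken 30 minutes later, while naive mice were not trained. The 8 conditions were trained KI, trained WT, naive KI and naive WT mice at 8 months and the same 4 at 5 months, with 3 mice each, and each of the 24 mice gave an IP and an input library (48 in all). The replicate number names an animal, each animal being in 1 condition alone.

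m6A is written while mRNA is made in the nucleus. METTL3 is the subunit that transfers the methyl group and METTL14 holds the RNA beside it. WTAP, ZC3H13, RBM15, RBM15B and CBLL1 (also called Hakai) keep this pair in the nucleus and bring it to its RNA targets. FTO and ALKBH5 are oxygenases that remove the mark. m6A lies mostly in long exons and around stop codons, within short motifs such as GGAC, and m6A in neurons has been linked to learning.

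The files hold peaks rather than reads, so the number of peaks is given in place of depth. How closely it follows depth was not tested. Animals had from 22601 to 57293 peaks (median 33826), with medians of 37268 in KI and 32712 in WT mice, 32699 in trained and 35324 in naive mice, and 37589.5 at 8 and 32598.5 at 5 months. In 5 animals, all of 8 months, peaks were short (median lengths of 172 to 233 bp, against 262 to 485 bp in the other 19). They were 2 naive KI, 1 naive WT, 1 trained KI and 1 trained WT mouse. Of 8 markers of hippocampal neurons, 6 to 8 had a peak in each animal, as did 3 to 4 of 4 markers of striatum and 1 to 2 of 4 of choroid plexus, with no peak on Ttr or Aqp1 in any animal. In this bulk tissue, fewer cells of a type and less RNA per cell cannot be told apart, and a region without a peak in an animal is not a region without m6A.

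Of the 47 regions, 14 had a peak in all 24 animals (29.8%, against 14.9% of all 81807 regions), 2 in 22 or 23, 18 in 3 to 21 and 13 in 1 or 2 animals. Of the 14, 6 were on Zc3h13. With a summit in exactly 1 coding gene, 12 of 44 member regions had a peak in all animals, against 9960 of all 60923. Each animal's strongest peak in a region gave a summit. The one with the most others within 50 bp was taken as the summit of the region. Of the 12 regions called in all animals with a summit in exactly 1 coding gene, 11 had it in coding sequence (CDS) and 1 in a 3'UTR. Over all 9960 such regions of the series, 50.6% lay in CDS, 30.9% in a 3'UTR and 13.9% in an intron.

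GGAC was searched on the transcribed strand, and so was DRACH, in which the base before RAC is A, G or T, R is A or G and the base after is A, C or T. GGAC followed by A, C or T is itself a DRACH. Windows of 100 bases on the summit held GGAC in 21 of 44 member regions (47.7%), against 37.6% of all 60923 regions, and in 8 of the 12 called in all animals (66.7%), against 50.2% of all 9960. DRACH was in 39 of 44 member windows (88.6%), against 83.6% of all, and in 12 of 12 called in all animals, against 91.1%. In windows of 50 bases the order of the regions called in all animals turned, with GGAC in 3 of 12 (25.0%), against 30.4% of all 9960, and DRACH in 8 of 12 (66.7%), against 74.2%. In windows of 200 bases GGAC was in 11 of 12 (91.7%), against 70.8%. Over all member regions GGAC was in 31.8% of the windows of 50 bases, against 21.5% of all 60923, and in 59.1% of those of 200 bases, against 57.8%. The following 30 bases, read from the mm9 genome and given 5′ to 3′ on the transcribed strand, surround the GGAC (in capitals) nearest the summit. They are shown as examples, from writers and erasers with such a GGAC, for 8 regions called in all animals and for the Fto 3'UTR region, called only at 8 months, and in each the base after GGAC is A, C or T, so each also holds DRACH.
Wtap 3'UTR of a shorter transcript (chr17:13167629-13167658, minus strand): ccaataagactgtGGACttcatgattgttg
Zc3h13 exon 9 (chr14:75721525-75721554, plus strand): ccatcctaccagaGGACtttaactccatct
Zc3h13 exon 15 (chr14:75731744-75731773, plus strand): gagacagagaccgGGACagaaggagagact
Rbm15 exon 1 (chr3:107134117-107134146, minus strand): atggctggtcactGGACagggacagaggtg
Rbm15b exon 1 (chr9:106787648-106787677, minus strand): cctttttggaaggGGACtggaccagcctca
Cbll1 exon 6 (chr12:32172175-32172204, minus strand): aaccccactacctGGACcgcatcatccaga
Fto exon 3 (chr8:93933549-93933578, plus strand): gcgatgatgaagtGGACcttaagagcagag
Fto exon 9, 3'UTR (chr8:94190424-94190453, plus strand): cccagtggttataGGACctgggttccaatt
Alkbh5 exon 4 (chr11:60367745-60367774, plus strand): ggatcctggaaatGGACaaagaagaaaacc
On Rbm15 exon 1 the GGAC stood 1 base from the summit of the region, and there were 5 within 100 bases. Only 8 of 24 animals had their own strongest summit within 100 bp of that point. Zc3h13 exon 15 also held 5, while the Mettl14 exon 11 region and the second Rbm15 region held none within 100 bases of the summit.

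**Figure D1:**
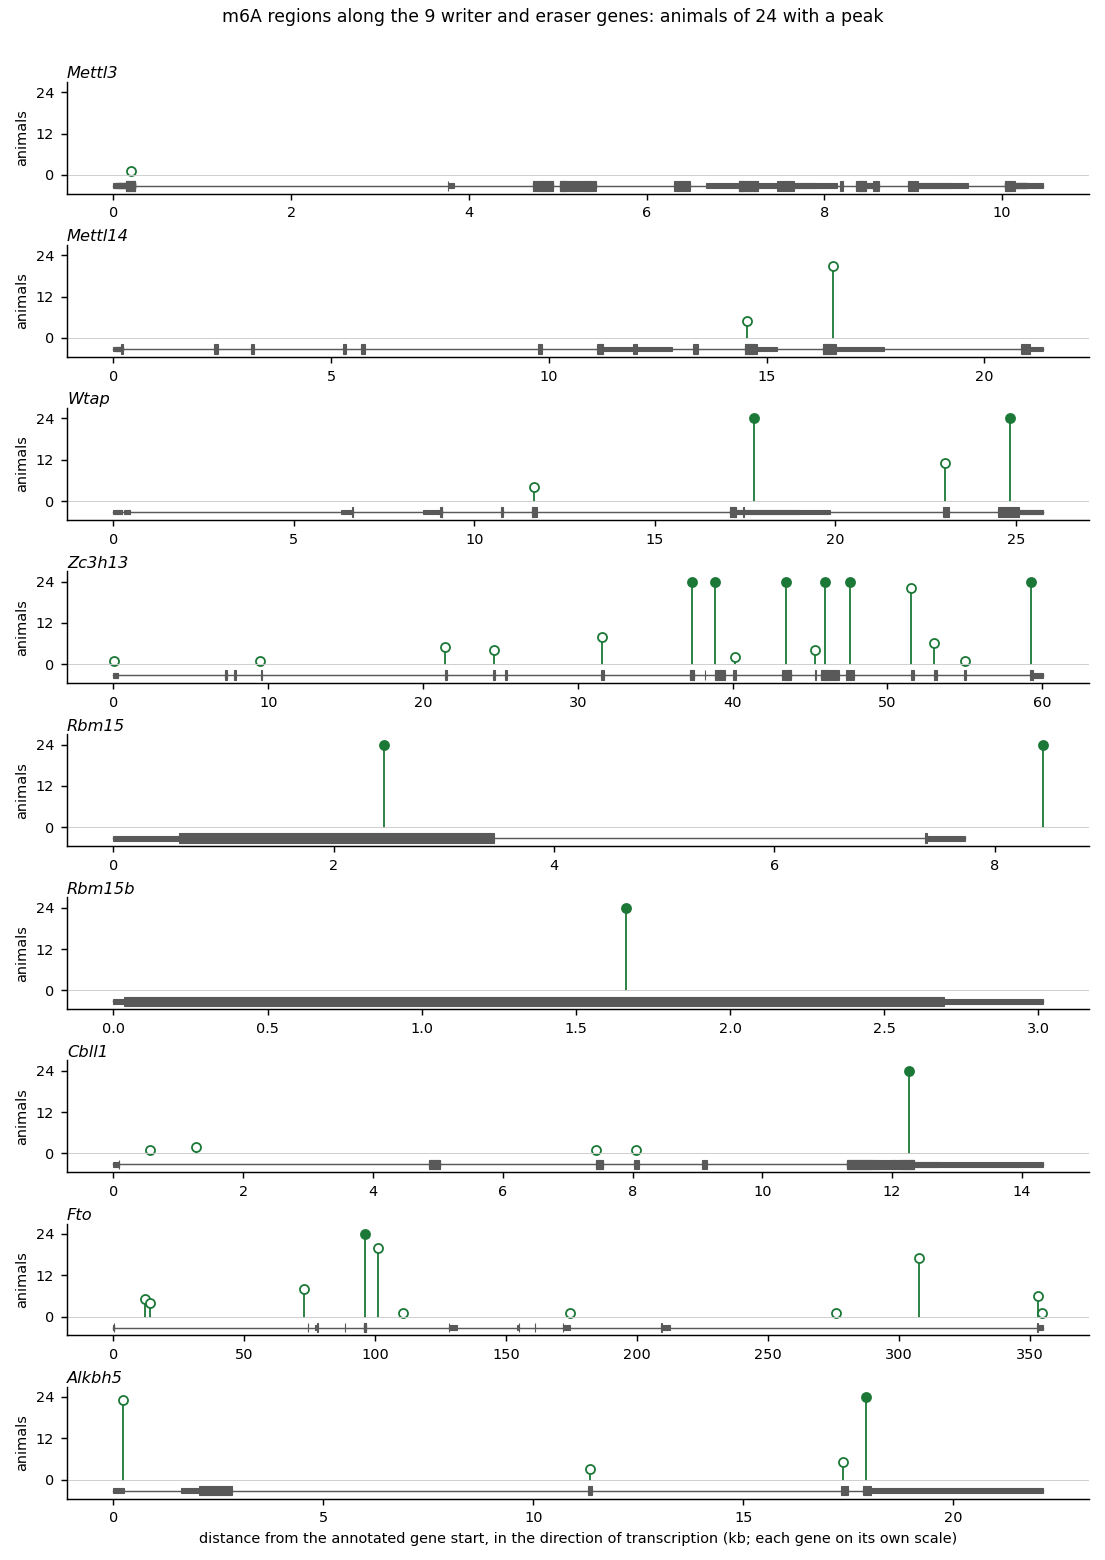
m6A regions along the 9 genes. Each pin stands at the summit of a region, at its distance in kb from the annotated gene start in the direction of transcription, and its height is the number of animals of 24 with a peak (filled: all 24); exons are drawn below, with coding parts tall. Mettl3 holds 1 pin of 1 animal, Zc3h13 holds 16 pins, and on Mettl14, Wtap, Zc3h13, Cbll1 and Alkbh5 a tall pin stands in the exon that ends the coding sequence.

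The 2 members of the catalytic core were the only ones of the 9 with no region called in all animals. Mettl3 (chr14:52914343-52924803, minus strand, 11 exons) had a peak in 1 animal of 24, a naive KI mouse of 8 months with the most peaks of all, in exon 1 (chr14:52924593-52924719, fold enrichment 3.70). Fold enrichment is the ratio of IP to input that the authors' peak caller gives at the summit. Every other member had a peak in at least 22 animals.

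Mettl14 (chr3:123067563-123088908, minus strand, 11 exons) had a region in exon 11 (chr3:123071913-123072781), with the summit 69 bases before the stop codon. It was called in 21 animals, 3 of 3 in each condition except trained WT mice of 8 months (1 of 3) and naive KI mice of 8 months (2 of 3). The strongest summit lay in CDS in 14 animals and in the 3'UTR in 7.
Fold enrichment there at 8 months was 4.39, 3.56 and 2.53 in trained KI mice, 3.52 in the 1 trained WT mouse with a peak, 1.97 and 3.50 in KI naive and 3.37, 4.68 and 2.67 in WT naive mice. At 5 months it was 3.79, 2.55 and 1.97 in trained KI, 2.60, 2.56 and 2.67 in trained WT, 4.83, 3.29 and 2.99 in KI naive and 3.22, 6.31 and 2.85 in WT naive mice. Conditions that differ only in genotype or only in training overlapped, except that the 3 trained WT mice of 5 months lay below the 3 naive ones. A second region in exon 10 was called in 5 animals (fold enrichment 2.61 to 5.79).

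Wtap (chr17:13159662-13185412, minus strand, 8 exons) carried the most enriched region of the 9 genes by median. That region (chr17:13167386-13168515) had its strongest summit in the 3'UTR of a shorter annotated transcript in 19 animals and in CDS in 5.
Its fold enrichment at 8 months was 11, 8.55 and 11.7 in trained KI, 13.5, 15.5 and 9.06 in trained WT, 9.84, 16.7 and 12.0 in KI naive and 13.7, 6.43 and 4.33 in WT naive mice. At 5 months it was 14.7, 6.55 and 4.18 in trained KI, 11.9, 7.15 and 4.30 in trained WT, 13.2, 4.68 and 13.4 in KI naive and 8.00, 6.25 and 8.84 in WT naive mice. Conditions that differ in 1 factor all overlapped, and the SD within conditions, 0.66 on the log2 scale, was above that of 97.8% of the 12187 regions called in all animals (median 0.38).
The other Wtap region of all animals lay in the last exon (chr17:13160304-13161040, exon 8, summit 250 bases before the stop codon), with fold enrichments of 3.37 to 9.25 (median 5.38). A region in exon 7 (chr17:13162303-13162573) was called in 11 animals and one in exon 5 in 4.

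Zc3h13 (chr14:75684180-75744233, plus strand, 19 exons) held 16 of the 47 regions, and 6 of the 14 called in all animals. These 6 lay in exons 9, 10, 12, 14, 15 and 19. Exon 9 has 308 bases, exons 10, 12, 14 and 15 have 651, 601, 1191 and 513 bases, and exon 19, of 833 bases, holds the stop codon, 83 bases past the summit.
At exon 9 (chr14:75721254-75721849) fold enrichment at 8 months was 4.96, 3.29 and 3.08 in trained KI, 4.98, 3.02 and 5.08 in trained WT, 2.71, 4.45 and 16.2 in KI naive and 5.27, 6.29 and 3.93 in WT naive mice. At 5 months it was 3.50, 2.65 and 3.69 in trained KI, 2.59, 2.66 and 3.92 in trained WT, 2.86, 4.14 and 4.98 in KI naive and 3.37, 5.45 and 2.16 in WT naive mice. A single naive KI mouse of 8 months, at 16.2, stood far above all others, of which the next was at 6.29.
At exon 10 (chr14:75722793-75723627) fold enrichment at 8 months was 4.1, 4.96 and 3.92 in trained KI, 3.19, 3.02 and 3.35 in trained WT, 3.10, 2.91 and 3.87 in KI naive and 3.57, 4.35 and 3.65 in WT naive mice, and over all 24 animals it was 2.31 to 4.96 (median 3.59). The 3 trained KI mice lay above the trained WT and the naive KI mice, and the trained WT mice below the naive WT mice. At exon 19 (chr14:75743231-75744188) it was 2.67 to 9.72 (median 4.14) over all animals.
Exon 12 (chr14:75727213-75727924) had 1.45 to 2.42 (median 1.77), exon 14 (chr14:75729697-75731022) had 2.25 to 3.65 (median 2.91) and exon 15 (chr14:75731407-75731996) had 2.37 to 4.48 (median 3.31). The mean enrichment of exon 12 was below that of all but 0.0903% of the regions called in all animals, and its SD within conditions, 0.17, below that of all but 1.24%.
A region over an intron and the exon beside it (chr14:75735515-75735837) was called in 22 animals, with the strongest summit in the intron in 14 and in CDS in 8. Its fold enrichments were 2.33 to 8.79 (median 5.04). The 9 others were called in 1 to 8 animals.

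Rbm15 and Rbm15b encode related RNA-binding proteins that guide the writer complex. Rbm15 (chr3:107128863-107136591, minus strand, 2 exons) had 2 regions, both called in all animals. The first lay in its long first exon, of 3459 bases (chr3:107132964-107135716), with fold enrichments of 4.72 to 12.3 (median 6.5).
The second (chr3:107127669-107129473) had its summit 711 bases past the annotated 3' end of the gene, and 22 of 24 animals had theirs past that end. Its fold enrichment at 8 months was 11.6, 10.0 and 6.17 in trained KI, 8.26, 10.4 and 7.15 in trained WT, 6.80, 11.3 and 6.34 in KI naive and 6.81, 7.91 and 7.71 in WT naive mice, and at 5 months 8.73, 7.26 and 8.28 in trained KI, 6.0, 7.69 and 7.51 in trained WT, 10.5, 7.57 and 7.12 in KI naive and 8.59, 8.12 and 7.45 in WT naive mice. All pairs of conditions that differ only in genotype or only in training overlapped.
Rbm15b (chr9:106786316-106789331, minus strand, 1 exon) had 1 region over its exon (chr9:106786338-106790348), which also overlaps Manf. Its summit lay in CDS in 18 animals and before the annotated start in 6. Fold enrichment was 5.41, 5.47 and 4.97 in trained KI, 4.81, 5.12 and 5.69 in trained WT, 7.29, 2.93 and 3.99 in KI naive and 4.58, 3.14 and 4.53 in WT naive mice of 8 months, and 2.93 to 4.96 over the 12 mice of 5 months.
The trained mice of both genotypes at 8 months lay within 4.81 to 5.69, the WT ones above the naive WT mice of that age, and the naive KI mice of 8 months held both the highest value of all and, tied with a trained KI mouse of 5 months to 3 digits, the lowest. A second, shorter gene record of the same name (chr9:106783260-106784620) had a region in 3 animals, all of 8 months.

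Cbll1, an E3 ubiquitin ligase that sits in the writer complex (chr12:32170158-32184481, minus strand, 6 exons), had 1 region in all animals, in exon 6 with the summit 80 bases before the stop codon (chr12:32172001-32173261).
Its fold enrichment at 8 months was 5.95, 4.21 and 6.73 in trained KI, 7.02, 4.21 and 5.58 in trained WT, 4.74, 6.15 and 3.95 in KI naive and 6.39, 7.33 and 6.81 in WT naive mice. At 5 months it was 10.8, 5.24 and 7.11 in trained KI, 5.56, 5.46 and 8.54 in trained WT, 5.19, 5.47 and 4.42 in KI naive and 5.03, 4.30 and 7.10 in WT naive mice. The 3 naive KI mice of 8 months lay below the 3 naive WT mice of that age, and the conditions of 5 months overlapped between genotypes. The 4 other Cbll1 regions were called in 1 or 2 animals each.

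Fto (chr8:93837431-94192338, plus strand, 9 exons over 354908 bp) had 11 regions, more than any member but Zc3h13, and 1 of them was called in all animals. It lay in exon 3 (chr8:93932948-93933711, 619 bases).
Its fold enrichment at 8 months was 2.48, 3.89 and 3.21 in trained KI, 3.31, 2.78 and 2.44 in trained WT, 4.84, 2.78 and 3.27 in KI naive and 2.56, 4.35 and 3.14 in WT naive mice. At 5 months it was 3.27, 3.74 and 3.07 in trained KI, 3.60, 2.76 and 1.96 in trained WT, 3.90, 2.61 and 2.39 in KI naive and 2.75, 3.48 and 2.49 in WT naive mice. The conditions overlapped in every pair that differs in 1 factor.
Fto also had summits deep in its introns. One at 101168 bp from the gene start (chr8:93937911-93939098) was called in 20 animals, 10 KI and 10 WT, with fold enrichments of 3.26 to 8.06 (median 5.85), and one at 307653 bp (chr8:94144830-94145292) in 17, 10 KI and 7 WT, with 2.84 to 9.99 (median 4.46). All animals had the strongest summit of these 2 regions in the intron. A region in the 3'UTR of exon 9, 120 bases past the stop codon (chr8:94190095-94190674), was called in 6 animals, all of 8 months. Fold enrichment there was 2.7 in 1 trained KI, 2.95 in 1 trained WT, 3.69 and 3.18 in 2 KI naive and 2.87 and 1.73 in 2 WT naive mice.

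Alkbh5 (chr11:60349883-60372014, plus strand, 4 exons) had 1 region in all animals, in exon 4 with the summit 123 bases before the stop codon (chr11:60367597-60368056).
Its fold enrichment at 8 months was 3.0, 2.17 and 3.26 in trained KI, 3.92, 4.82 and 2.26 in trained WT, 2.94, 5.23 and 4.33 in KI naive and 2.16, 2.97 and 2.93 in WT naive mice. At 5 months it was 2.57, 3.38 and 5.04 in trained KI, 3.51, 2.10 and 3.33 in trained WT, 2.43, 2.59 and 2.22 in KI naive and 2.76, 5.76 and 2.19 in WT naive mice. Conditions that differ in 1 factor overlapped, except that the naive KI mice of 8 months lay above those of 5 months.
A broad region over the start of the gene (chr11:60349851-60352635) was called in 23 animals with fold enrichments of 2.09 to 7.62 (median 4.74). Its strongest summit moved between animals, lying in an intron in 8, a noncoding exon in 8, CDS in 5 and the 5'UTR in 2.

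**Figure D2:**
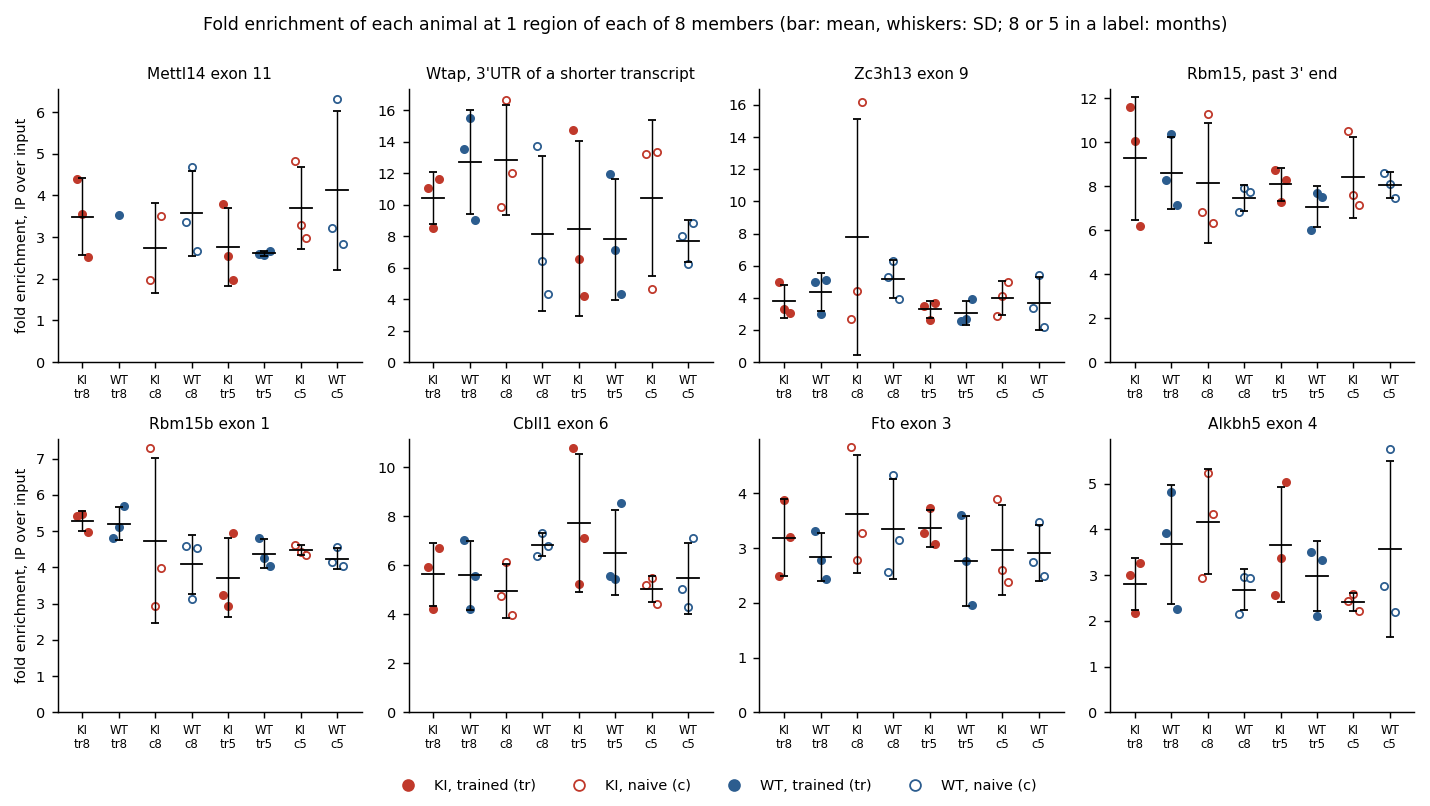
Fold enrichment (IP over input, linear scale from 0) of each animal at 1 region of each of the 8 members with a region in most animals, by condition. Points are animals (red: KI, blue: WT, filled: trained, open: naive), bars are means and whiskers SDs of up to 3 animals. The naive KI mouse of 8 months at 16.2 stands apart on Zc3h13 exon 9. Wtap runs from 4.18 to 16.7 over all animals, and from 4.18 to 14.7 within the trained KI mice of 5 months.

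**Figure D3:**
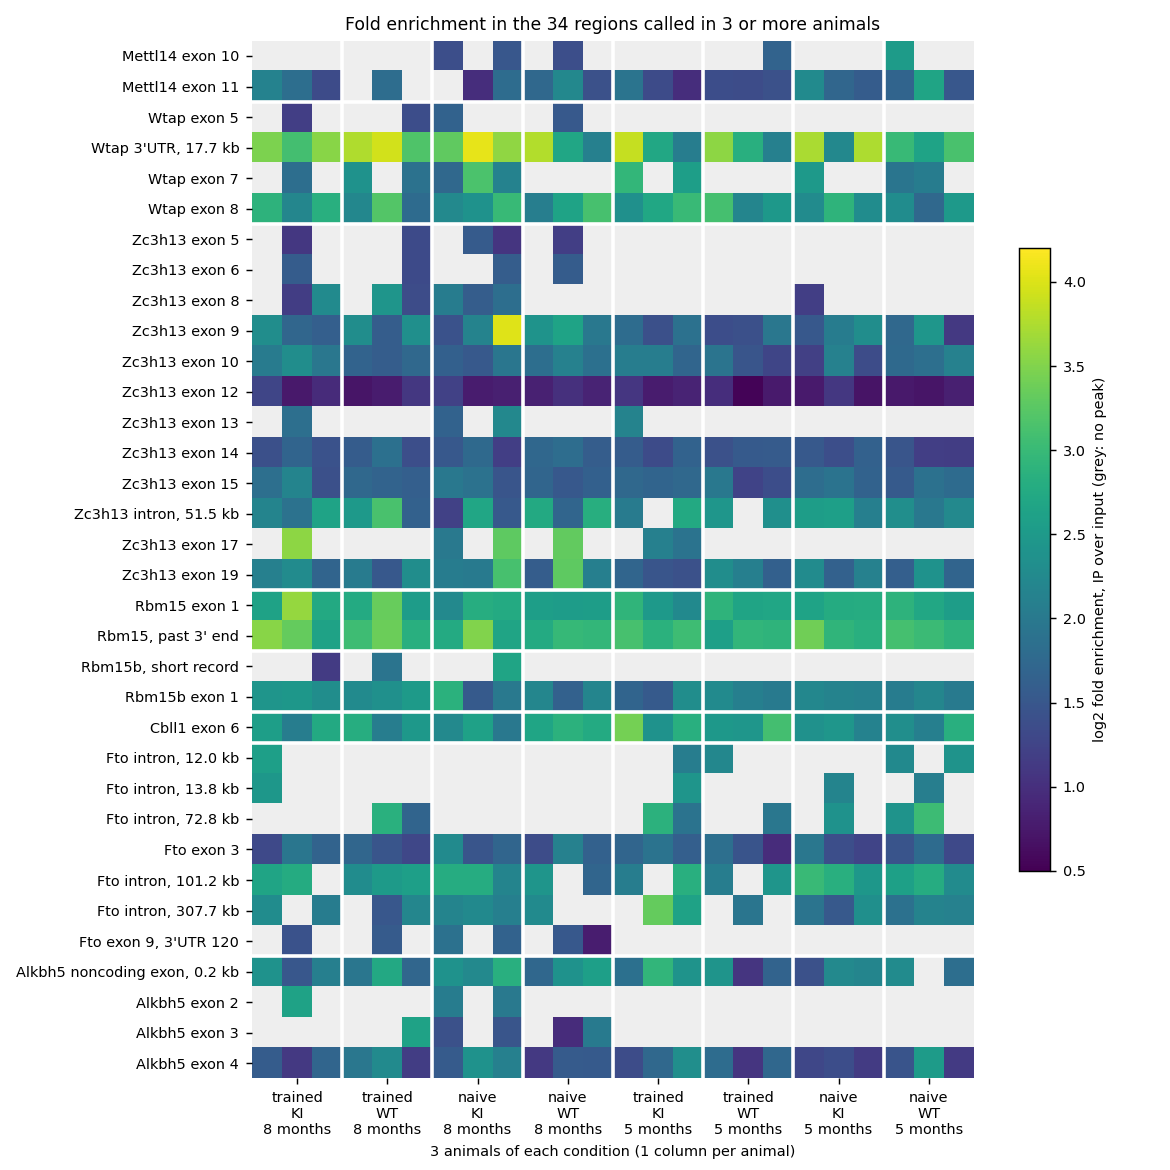
Log2 fold enrichment of the 34 member regions called in 3 or more animals (rows, in the order of the gene) in each of the 24 animals (columns, 3 per condition). Grey cells have no peak. The 14 rows without grey are the regions of all animals, and regions with few peaks have most of them among the mice of 8 months on the left, while the Fto introns have theirs on both sides.

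KI and WT mice were compared first, at the 14 regions called in all animals. No member region passed the test for a difference between the genotypes. The Wtap 3'UTR region was at 4.18 to 16.7 (median 11.4) over the 12 KI mice, against 4.30 to 15.5 (median 8.42) over the 12 WT mice. Cbll1 exon 6 was at 3.95 to 10.8 (median 5.36) in KI, against 4.21 to 8.54 (median 5.98) in WT mice, and Fto exon 3 at 2.39 to 4.84 (median 3.24) in KI, against 1.96 to 4.35 (median 2.77) in WT mice. In all 3 the ranges of the genotypes overlapped over most of their length.
In limma's fit of log2 fold enrichment, centred on each animal's median, the KI minus WT difference was 0.17 (SE 0.23, 95% interval -0.31 to 0.65) at Wtap, the largest, -0.14 (SE 0.15, 95% interval -0.44 to 0.17) at Cbll1, the lowest, and 0.10 (SE 0.13, 95% interval -0.16 to 0.37) at Fto. Alkbh5 exon 4 had -0.02 (SE 0.16, 95% interval -0.34 to 0.30). The 14 differences had a median of 0.02, against 0.00 over all regions, and 8 of 14 were above 0. None passed limma's test at an adjusted p under 0.05 (smallest adjusted p 0.996), nor did any of all 12187 regions (0.0%), and at an unadjusted p under 0.05 there were 0 of 14 member regions, against 3.96% of all regions.
Within each age and training state, 0 of 14 passed in any of the 4 comparisons (smallest adjusted p 0.895), against 0.0% of all regions in each. At an unadjusted p under 0.05 there were also 0 of 14 in each, against 5.24% of all regions in naive mice of 8 months, 4.69% in trained mice of 8 months, 3.47% in naive and 3.58% in trained mice of 5 months.

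The 2 regions called in 22 or 23 animals and the 13 called in 1 or 2, the Mettl3 region among them, entered neither main test. Peak calls were compared at the 18 member regions called in 3 to 21 animals. None passed the test between KI and WT mice (Fisher's exact test over 12 against 12 animals, two-sided, adjusted p 1.0 in each), against 1 of 35110 regions of the series (0.00285%). The number at an unadjusted p under 0.05 was 0 of 18, against 1.79% of all. In Fisher's exact test 3 animals called against 0 give p 0.217 and 4 against 0 give 0.0932. A region called in 3 or 4 animals, or missing in 3 or 4, thus cannot reach 0.05 for any factor. Among the 18 these are Mettl14 exon 11, Wtap exon 5, Zc3h13 exons 6 and 13, the shorter Rbm15b record and Alkbh5 exon 2. The Fto intron regions 13815 and 101168 bp from the gene start are others. More KI than WT mice were called at 10 of the 18 (55.6%, against 67.5% of all regions), fewer at 4 (22.2%, against 18.3%), and as many at 4. Zc3h13 exon 13 was called in 4 KI and 0 WT mice and Zc3h13 exon 17 in 5 KI and 1 WT mouse, and of these calls 3 of 4 and 4 of 6 were in animals with short peaks. The Fto intron region 72776 bp from the gene start was called in 3 KI and 5 WT mice, and Mettl14 exon 11 in 11 KI and 10 WT mice.
Among naive mice of 8 months, Wtap exon 7 and Zc3h13 exon 8 had a peak in 3 of 3 KI animals but in 0 of 3 WT animals. The KI values were 3.36, 8.87 and 4.39 at Wtap and 4.15, 3.02 and 3.56 at Zc3h13. They are 2 of 28 member regions called in these mice, against 1.82% of all 41258 regions in that direction, and 3 against 3 animals cannot give an exact p under 0.1. Of the 3 naive KI mice 2 are among the animals with short peaks, as is 1 of the 3 naive WT mice. In the other 7 pairs of conditions that differ in genotype or training no member region (of 22 to 28) was called in all animals of one condition and none of the other, against 1.11% of all regions in either direction for trained KI and WT mice of 8 months, 2.81% for trained and 1.35% for naive KI and WT mice of 5 months, 2.43% for trained and naive KI mice of 8 months, 1.16% for WT mice of that age, 1.08% for trained and naive KI mice of 5 months and 1.75% for WT mice of that age.

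Training was compared next. No member region passed the test for a difference between trained and naive mice. Zc3h13 exon 9 was at 2.59 to 5.08 (median 3.39) over the 12 trained mice, against 2.16 to 16.2 (median 4.29) over the 12 naive mice, and Zc3h13 exon 19 at 2.67 to 4.98 (median 3.70) in trained, against 3.0 to 9.72 (median 4.23) in naive mice. Cbll1 exon 6 was at 4.21 to 10.8 (median 5.76) in trained, against 3.95 to 7.33 (median 5.33) in naive mice. The groups overlapped in each.
The trained minus naive difference was -0.34 (SE 0.20, 95% interval -0.76 to 0.07) at Zc3h13 exon 9, -0.28 (SE 0.17, 95% interval -0.62 to 0.06) at exon 19 and 0.17 (SE 0.15, 95% interval -0.14 to 0.47) at Cbll1. Without the naive KI mouse at 16.2 the first was -0.16, and without the 5 animals with short peaks -0.23. The 14 differences ran from -0.34 to 0.17 with 10 above 0, and 0 of 14 passed limma's test (smallest adjusted p 0.9999), against 1 of 12187 regions (0.00821%). At an unadjusted p under 0.05 there were 0 of 14, against 3.7% of all.
Calls gave 0 of 18 member regions past the adjusted threshold and 0 at an unadjusted p under 0.05, against 0.0% and 1.44% of all regions.

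Training was also compared within each genotype and age, and the change with training was compared between the genotypes. Of the 14 regions 0 passed in any of the 4 training comparisons (smallest adjusted p 0.862), against 0.0% of all regions in each, and 0 of 14 had an unadjusted p under 0.05, against 5.9% of all regions in KI and 3.83% in WT mice of 8 months and 3.28% in KI and 3.08% in WT mice of 5 months. The genotype difference in the change with training was not past the adjusted threshold at any member region at either age, against 0.0% of all at each.
At 8 months, 2 of 14 had an unadjusted p under 0.05, against 5.56% of all regions, and at 5 months 0 of 14, against 3.1%. The first was Alkbh5 exon 4, at 2.81 ± 0.566 in trained KI and 4.17 ± 1.15 in naive KI mice, and at 3.67 ± 1.30 in trained WT and 2.68 ± 0.456 in naive WT mice (SD, n = 3 each). The change with training in KI minus that in WT was -0.94 (SE 0.44, 95% interval -1.85 to -0.03), with limma p 0.0443 and adjusted p 0.884. Over the alternatives it ran from -1.54 to -0.69. The value of -1.54 was found without the 5 animals with short peaks, which leaves 1 naive KI mouse of 8 months, at 5.23. At 5 months the difference at Alkbh5 exon 4 ran the other way, at 0.54 (SE 0.44, 95% interval -0.37 to 1.45).
The second was Zc3h13 exon 10, at 4.33 ± 0.551 in trained KI and 3.29 ± 0.507 in naive KI mice, and at 3.19 ± 0.163 in trained WT and 3.86 ± 0.431 in naive WT mice. Here the difference was 0.68 (SE 0.32, 95% interval 0.02 to 1.34), with limma p 0.0432 and adjusted p 0.884. At 5 months it had the same direction, at 0.56 (SE 0.32, 95% interval -0.10 to 1.22).

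The 2 ages were compared last. No tested member region passed for enrichment or for calls, and the 4 regions with the lowest p for calls had more animals called at 8 months. Zc3h13 exon 9 was at 2.71 to 16.2 (median 4.70) over the 12 mice of 8 months, against 2.16 to 5.45 (median 3.43) over the 12 mice of 5 months. The Wtap 3'UTR region was at 4.33 to 16.7 (median 11.4) at 8 months, against 4.18 to 14.7 (median 7.58) at 5 months, and Zc3h13 exon 19 at 2.87 to 9.72 (median 4.23) at 8 months, against 2.67 to 5.22 (median 3.26) at 5 months.
The 8 minus 5 months difference was 0.40 (SE 0.20, 95% interval -0.02 to 0.82) at Zc3h13 exon 9 (limma adjusted p 0.674), 0.35 (SE 0.23, 95% interval -0.13 to 0.83) at Wtap and 0.25 (SE 0.17, 95% interval -0.09 to 0.59) at Zc3h13 exon 19. Without the naive KI mouse at 16.2 the first was 0.22, and without the 5 animals with short peaks Wtap had 0.59 and exon 19 had -0.01. Of the 14 differences 12 were above 0, with a median of 0.05, against 0.00 over all regions, and 0 of 14 passed, against 0.0% of all regions. At an unadjusted p under 0.05 there were 0 of 14, against 7.76% of all.
The Fto 3'UTR region was called in 6 of 12 mice of 8 months and 0 of 12 of 5 months (Fisher's exact test, p 0.0137, adjusted p 0.312). Zc3h13 exon 8 was called in 7 mice of 8 months and 1 of 5 months (p 0.0272), and Zc3h13 exon 5 and Alkbh5 exon 3 in 5 of 8 months and 0 of 5 months each (p 0.0373, adjusted p 0.399 for all 3). These 4 of 18 member regions had an unadjusted p under 0.05 and a higher count at 8 months, where 8.86% of all 35110 regions did, against 0 of 18 with a higher count at 5 months (0.937% of all). Counting both directions it was 9.8% of all regions, and 0 of 18 member regions and 0.0% of all passed the adjusted threshold. At any p, more mice of 8 than of 5 months were called at 12 of the 18 (66.7%, against 61.6% of all regions). Fewer were called at 5 (27.8%, against 28.5%) and as many at 1. The Fto intron region 72776 bp from the gene start was called in 2 mice of 8 months and 6 of 5 months.
The 5 animals with short peaks, all of 8 months, had 25 to 36 member regions each, and the other 19 had 17 to 24. As shares of all regions called in each animal, these were 0.0671% to 0.0854% in the 5 and 0.0618% to 0.084% in the other 19. The Fto 3'UTR region was called in 4 of the 5 and in 2 of the other 7 mice of 8 months, Zc3h13 exon 5 and Alkbh5 exon 3 in 4 and 1 each, and Zc3h13 exon 8 in 4 and 3. Wtap exon 5 and Zc3h13 exon 6 were called in 4 of the 5 and in no other animal. The part of peak length in these calls was not tested. The Fto intron regions 12001 and 13815 bp from the gene start were called in 0 of the 5 and in 5 and 4 other animals.

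**Figure D4:**
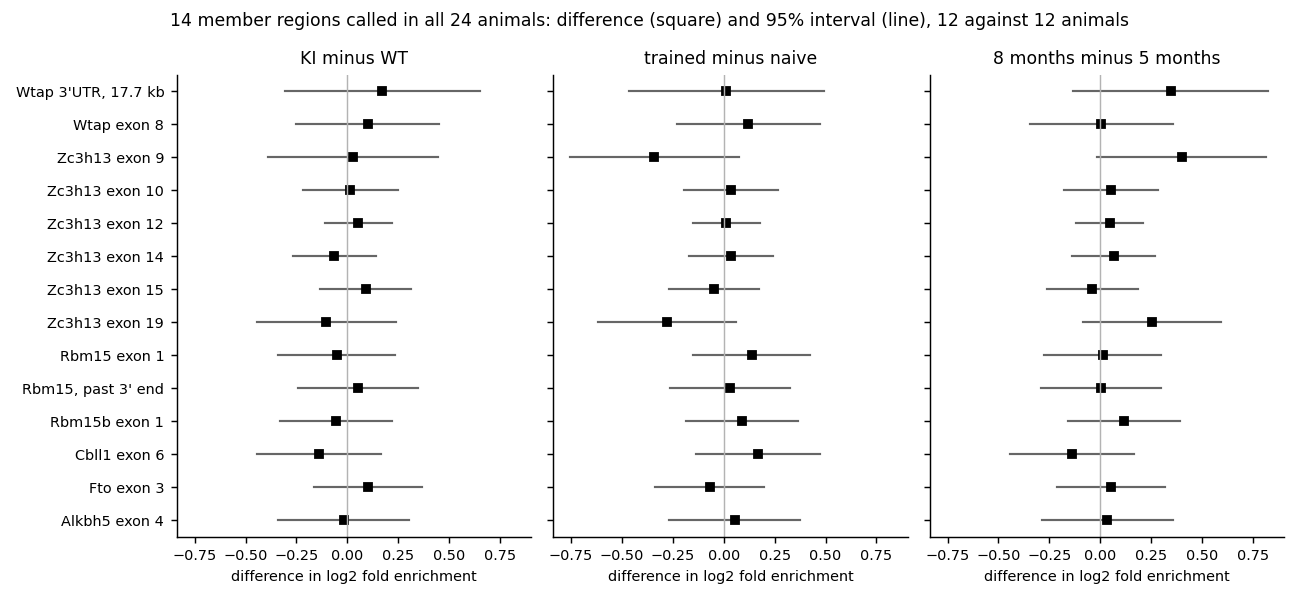
Difference in log2 fold enrichment (squares) with its 95% interval (lines) at the 14 member regions called in all 24 animals, for KI minus WT, trained minus naive and 8 minus 5 months, 12 against 12 animals each. Every interval holds 0, and those of Wtap and of Zc3h13 exon 9 are the widest.

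**Figure D5:**
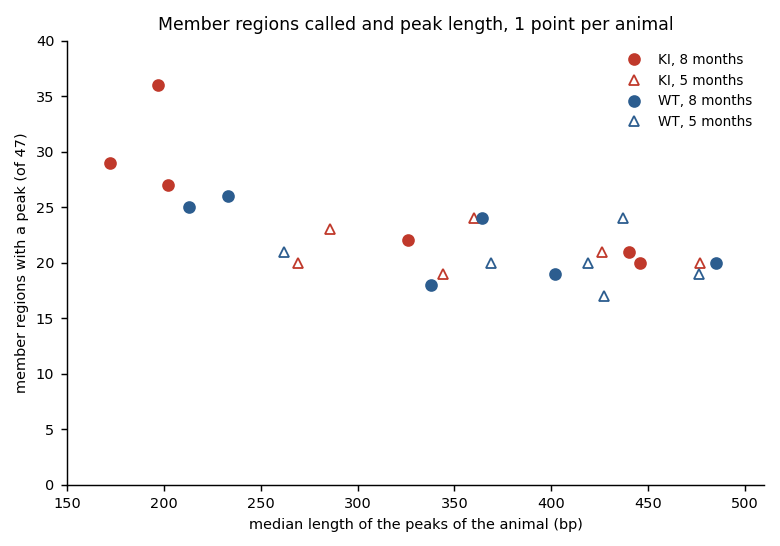
Number of the 47 member regions with a peak in each animal against the median length of that animal's peaks in bp (red: KI, blue: WT, circles: 8 months, triangles: 5 months). The 5 animals on the left, with median lengths of 172 to 233 bp, have 25 to 36 regions, and the other 19 have 17 to 24.

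Over the 3 mice of a condition, member regions with a peak numbered 22.7 ± 3.79 in trained KI, 22.7 ± 4.16 in trained WT, 29.0 ± 7.00 in KI naive and 21.3 ± 3.21 in WT naive mice of 8 months. At 5 months they were 21.3 ± 2.31 in trained KI, 18.7 ± 1.53 in trained WT, 21 ± 2.00 in KI naive and 21.7 ± 2.08 in WT naive mice (SD, n = 3 each). The naive KI mice of 8 months had 29, 22 and 36 regions, and the SD of that condition was the widest. These were 0.0671%, 0.065% and 0.0716% of all regions called in each mouse (43212, 33854 and 50299). Over all animals this share ran from 0.0618% to 0.0854%, so it was not raised in the naive KI mice of 8 months. The trained WT mice of 5 months, with the lowest mean count, had shares of 0.0766%, 0.084% and 0.0816%.

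The deposited tables of differential peaks give, for each peak, the mean level of IP reads in 2 groups on the log2 scale. This is the authors' mean over the animals of a group, without a spread, and it is not divided by input, so it moves with the amount of the transcript as well as with m6A. They list only peaks with an unadjusted p of up to 0.05, and they were normalized separately, so levels are set side by side only within a table. Members had 43 rows in them, 17 on Zc3h13, 7 on Fto, 6 on Rbm15, 5 on Wtap, 3 on Rbm15b, 2 each on Mettl14 and Alkbh5, 1 on Cbll1 and 0 on Mettl3.
The tables of KI against WT mice listed 6 of the 8 members with a reproducible region (called in at least 2 of 3 animals of a condition) in naive mice of 8 months, against 35.1% of all genes with one. They listed 2 of 8 in trained mice of 8 months (34.5% of all genes), 3 of 8 in naive mice of 5 months (36.0%) and 2 of 8 in trained mice of 5 months (32.2%). The tables of trained against naive mice listed 2 of 8 in KI mice of 8 months (36.3%), 4 of 8 in WT mice of 8 months (40.2%), 3 of 8 in KI mice of 5 months (39.6%) and 4 of 8 in WT mice of 5 months (34.3%). The 2 tables that the series description gives as pooling the genotypes listed Rbm15 and Alkbh5 (5 months) and Wtap (8 months). In the first the Htt intron peak had levels of 4.84 and 10.39, against 11.26 to 11.57 in KI and 4.77 to 6.83 in WT mice in the 4 tables that compare the genotypes, so what its groups hold is not settled.

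Among naive mice of 8 months, Mettl14 exon 11 had a mean log2 level of 7.70 in KI, against 8.4 in WT mice. The Fto 3'UTR region had 3.48 in KI and -0.13 in WT mice, the lowest level of any member row. Wtap exon 8 had 11.41 in KI and 11.29 in WT, Rbm15b exon 1 had 15.38 in KI and 15.46 in WT, and the part of the second Rbm15 region listed there had 9.0 in KI and 9.24 in WT mice. The levels of Mettl14, Rbm15 and Rbm15b were lower and those of Wtap and the Fto 3'UTR higher in KI than in WT mice, and 36.2% of all peaks listed in this table were lower in KI mice.
Zc3h13 had 2 rows in this table, with 10.25 in KI and 10.00 in WT at the region of the intron boundary, and 11.63 in KI and 11.49 in WT at exon 19. In naive mice of 5 months the exon 19 row ran the other way, with 11.55 in KI and 11.71 in WT mice, while the intron boundary had 10.01 in KI and 9.67 in WT.
Also in naive mice of 5 months, Cbll1 exon 6 had 12.04 in KI and 12.27 in WT, Fto exon 3 had 11.66 in KI and 11.98 in WT, Zc3h13 exon 14 had 11.89 in KI and 11.57 in WT and exon 15 had 14.39 in KI and 14.63 in WT mice. Rows of 1 gene thus stood on both sides in 1 table. Of its 6 member rows 4 were lower in KI mice, as were 67.3% of all peaks listed there. In trained mice of 5 months the second Rbm15 region had 9.16 in KI and 8.58 in WT mice and Zc3h13 exon 10 had 12.88 in KI and 12.57 in WT mice. Of these 2 member rows 0 were lower in KI mice, against 21.3% of all 5699 peaks listed there. In trained mice of 8 months Rbm15b exon 1 had 15.51 in KI and 15.39 in WT, and Zc3h13 exon 12 had 14.28 in KI and 14.46 in WT, with exon 14 at 10.87 in KI and 10.60 in WT mice. Here 1 of 3 member rows was lower in KI mice, against 41.5% of all peaks listed. The part of these shares in the member rows was not tested.

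Of the 9 rows on the erasers, 4 were in the table of trained and naive WT mice of 5 months. There Fto exon 3 had a mean log2 level of 11.57 in trained and 11.95 in naive mice, the Fto intron at 101168 bp had 6.95 in trained and 7.83 in naive mice, and the one at 307653 bp had 6.83 in trained and 7.81 in naive mice. Alkbh5 exon 4 had 9.03 in trained and 9.44 in naive mice.
In the same table the second Rbm15 region had 10.15 in trained and 10.82 in naive mice and the Wtap 3'UTR region 12.08 in trained and 12.39 in naive mice. All 6 member rows of this table were lower in trained mice, as were 84.1% of all 5962 peaks it lists, and the 3 trained WT mice of 5 months had 22601 to 27906 peaks, fewer than any other condition. The part of this tilt in the member rows was not tested.
In KI mice of 5 months the Fto intron at 101168 bp was listed in 2 parts, with 5.94 in trained and 6.51 in naive mice and with 6.11 in trained and 7.17 in naive mice. The second Rbm15 region had 10.56 in trained and 10.78 in naive KI mice, Zc3h13 exon 14 had 11.67 in trained and 11.91 in naive mice, and exon 15 had 14.67 in trained and 14.37 in naive mice.

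In WT mice of 8 months Mettl14 exon 11 had 7.62 in trained and 8.39 in naive mice. Wtap exon 8 had 11.45 in trained and 11.28 in naive mice, and the Wtap 3'UTR region 12.35 in trained and 12.20 in naive mice. Mettl14 was thus lower and Wtap higher in trained than in naive mice in that table, and the Wtap 3'UTR region was lower in trained mice in the WT table of 5 months.
The second Rbm15 region there had 9.0 in trained and 9.24 in naive mice, and Zc3h13 exons 9 and 10 had 11.36 and 12.83 in trained, against 11.49 and 12.94 in naive mice, with exon 19 at 11.62 in trained and 11.49 in naive mice. In KI mice of 8 months Rbm15b exon 1 had 15.56 in trained and 15.43 in naive mice. The 3 Zc3h13 rows of that table were lower in trained mice, as were 54.7% of all peaks it lists, exon 12 with 14.33 in trained and 14.49 in naive mice, exon 14 with 12.25 in trained and 12.41 in naive mice and the intron boundary with 10.08 in trained and 10.30 in naive mice. Naive WT mice of 8 months stand in 2 of these tables, as do the other conditions, so a condition that is high or low enters both.

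At the region of each member with the highest mean fold enrichment among those called in all animals, the pattern over the 24 animals was set against the other regions called in all animals. Zc3h13 exon 9 has the highest mean with the mouse at 16.2 included, while its median, 3.80, is below that of exon 19, 4.14. The gene of the most similar region was Ccny for Wtap (Pearson's r of 0.68), Zfp318 for Zc3h13 exon 9 (0.68), Nav1 for Rbm15 (0.68), Kcnn2 for Rbm15b (0.68), Ctif for Cbll1 (0.69), Lgi2 for Fto (0.74) and D930015E06Rik for Alkbh5 (0.72). Each is the highest of 12187 regions and the points share their libraries, so these values are descriptions.

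Other genes of the pathway were counted in the same way. They were 21 genes, the further writers and cofactors Virma, Mettl16, Mettl5, Trmt112, Zcchc4, Pcif1 and Mat2a, which makes the methyl donor, and readers and other RNA-binding proteins (Ythdf1, Ythdf2, Ythdf3, Ythdc1, Ythdc2, Igf2bp1, Igf2bp2, Igf2bp3, Hnrnpc, Hnrnpa2b1, Rbmx, Fmr1, Prrc2a and Elavl1). They had 92 regions, 17 of them in all animals, and Igf2bp1, Igf2bp2 and Hnrnpc had none. Of these 17, 0 passed for genotype, training or age, with 0, 1 and 1 at an unadjusted p under 0.05, against 3.96%, 3.7% and 7.76% of all regions. Of 40 regions tested for calls, 0 passed for any factor. At an unadjusted p under 0.05 there was 1 for genotype (2.5%, against 1.79% of all regions), 0 for training (against 1.44%) and 6 for age (15.0%, against 9.8%). Of these 7, 6 were on Prrc2a alone, which had 10 of the 40 regions tested, and 1 was on Ythdf3.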

How the data were processed

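RNA from the hippocampus of 24 mice was fragmented, immunoprecipitated with an anti-m6A antibody and sequenced beside its input, 1 IP and 1 input library per animal. The authors aligned the reads to mm9 with STAR 2.7.3a, kept unique reads outside repeats, and called peaks for each animal with MACS2 2.2.6. The deposited peak lists hold the fold enrichment, a ratio of IP to input at the summit, the −log10 of p and q, and a score that is derived from q. The deposited tables of differential peaks (DiffBind 2.8.0) hold a mean log2 level per group, and fold changes and p-values of the authors' own comparisons, which were not used. All 10 tables carry the column names of a single one, so their groups were taken from the order in the series description. In the table given as pooling the genotypes at 5 months, the levels of the huntingtin intron peak go against 2 groups that both hold KI mice, so what that table compares is not settled, and no member levels are printed from it or from the pooled table of 8 months. Table starts count from 0 and were converted. Whether strand was used in peak calling is not given in the sources used here.

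Peaks of all animals were joined where they overlapped by 1 bp. An animal's value in a region is its strongest peak. Members were placed on GENCODE vM1. limma 3.58.1 (R 4.3.3), with a trend of variance on level, fitted 8 condition means to log2 fold enrichment, centred on each animal's median, over the 12187 regions called in all animals, with Benjamini-Hochberg adjustment over all of them and a threshold of 0.05. Calls were compared by two-sided Fisher's exact tests over the 35110 regions called in 3 to 21 animals. The limma p-values set a difference against the spread between animals within conditions, and Fisher's exact tests use only the numbers of animals called and not called. Both kinds of test were tried on simulated data. The genes and lists were chosen with earlier results of these data known. Regions given in detail are those called in all animals (for Zc3h13, the 3 with the highest mean), those with the lowest p of a call test, and those in a deposited table. Alternatives covered the joining of peaks, stricter peaks, an equal number of peaks, centring, covariates and leaving out each animal.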

Additional observations from a re-analysis of the deposited data

Results flagged for a closer look

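At Zc3h13 exon 10, in mice of 8 months, every trained KI animal lay above every naive KI animal and every trained WT animal below every naive WT animal. The trained minus naive difference in log2 fold enrichment was 0.40 in KI and -0.28 in WT mice. This was 1 of 84 pairs of effects looked at in this way over the 14 member regions called in all animals. The difference between the 2 effects was 0.68 (SE 0.32), with a limma p of 0.043 and an adjusted p of 0.884. It ranged from 0.58 to 0.78 over the alternatives.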

How the results depend on the processing

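No paired analysis was possible because each animal is in 1 condition and the replicate numbers only name animals. The 9 counts of member regions past the adjusted threshold stayed at 0 under all 282 alternative values, and the smallest adjusted p among them was 0.123. Of 329 settings of the 11 single values, 327 kept their direction and their side of the threshold. The 2 that reversed were both the 8 minus 5 months difference at Zc3h13 exon 19, which was -0.034 with the number of peaks as a covariate and -0.01 without the 5 animals with short peaks, an alternative chosen after seeing the data. That alternative left the naive KI mice of 8 months with 1 animal, assumed to vary like the others, and the Fto 3'UTR, Zc3h13 exon 5 and Alkbh5 exon 3 regions were then called in too few animals to be tested. The difference in the change with training at Alkbh5 exon 4 ran from -1.54 (without those animals) to -0.69, the age difference of Wtap from 0.21 to 0.67, and the training difference of Zc3h13 exon 9 from -0.48 to -0.16 (without the naive KI replicate 3 of 8 months). Member regions numbered 79 with peaks joined by summit, 45 and 41 with a −log10 q of at least 3 and 5, 38 with the best 22601 peaks of each animal, and 43 without the naive KI replicate 3 of 8 months, where Mettl3 had none. Without reads, depth per region is unknown, and a region not called in an animal has no value there.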
